A study of Mus musculus with 6 samples.

Results

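The imprinted growth-regulating genes are 10 genes that are each read mainly from the copy of 1 parent: Igf2, Igf2r, Grb10, Cdkn1c, Plagl1, Dlk1, Peg3, Mest, Peg10 and H19. They were taken by symbol from the platform's gene table, which assigned 18 of the 46632 probes on the array to 9 of the 10 genes. H19, the noncoding RNA made beside Igf2, was not analysed here, since no probe carried its symbol. Of the 18 probes, 15 passed the detection filter described below, at least 1 for each of the 9 genes.

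Expression was measured on 6 arrays, all on 1 Illumina BeadChip. The tissue was lens ectoderm cut by laser from frozen 10-micron sections of mouse embryos at embryonic day 9.5. The labels also describe it as prospective lens or retina. The wild-type group (WT 1 to WT 3) and the group with type I BMP receptors deleted in the lens placode (KO 1 to KO 3) had 3 arrays each, on a shared mixed background that the labels give as C57BL6 and FVB. The titles name the line ALK23, the protein names ALK2 and ALK3 belonging to the receptor genes Acvr1 and Bmpr1a. The sources used here do not say which promoter drove the deletion or whether the wild-type embryos carried that driver. The series text mentions pooling of RNA, and whether an array holds 1 embryo or a pool is unclear. Part or all of the spread behind each p-value may therefore be technical, and the intervals may not cover differences between embryos.

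Imprinted genes are governed by methylation marks set in egg or sperm, which leave mainly 1 parental copy active, and the marked copy can be the silent or the active one depending on the locus. Many of them act on how large the embryo and its organs grow. In textbook accounts, growth-promoting members such as Igf2 are usually active from the father's copy, and growth-restraining members such as Igf2r, Grb10 and Cdkn1c from the mother's. An expression array sums the RNA of both copies, so none of the values below tells which parental copy was read.

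Levels are normalized log2 intensities, with an offset of 16 before the logarithm, and a probe counted as detected on an array at a detection p below 0.05. Brightness also depends on the probe, so the ranks below describe each probe's place on its array and do not order the genes by transcript abundance. Between 39.6% and 45.7% of all probes were detected per array. Acvr1 lay between 6.63 and 8.73 on the WT arrays and between 6.49 and 7.51 on the KO arrays, and Bmpr1a between 9.18 and 9.86 and between 9.60 and 9.81, so neither receptor separated the genotypes. The sources used here do not place these probes relative to the deleted exons, and probes outside the deletion check nothing. Of 14 lens ectoderm markers 10 were tested, among them Pax6 at 10.48 to 11.30 over the 6 arrays. Foxe3 and Pitx3 fell below the filter and the crystallin gene Cryaa was detected on no array.

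RefSeq promoter windows of build GRCm38.p6 were given for 7 of the 10 genes, 13 windows in all. The 250 bases before the transcription start of 3 of them are shown because these genes span the behaviour on the arrays. Grb10 had the probe of highest rank, and the brighter Dlk1 probe varied most. Peg3 carries one of the classic parental methylation marks at its promoter. Capitals mark CG dinucleotides, the sites at which such methylation sits. The windows are chr11:12037421-12037670 (minus strand) for the first Grb10 start, chr12:109452573-109452822 (plus strand) for Dlk1 and chr7:6730420-6730669 (minus strand) for Peg3.
Grb10: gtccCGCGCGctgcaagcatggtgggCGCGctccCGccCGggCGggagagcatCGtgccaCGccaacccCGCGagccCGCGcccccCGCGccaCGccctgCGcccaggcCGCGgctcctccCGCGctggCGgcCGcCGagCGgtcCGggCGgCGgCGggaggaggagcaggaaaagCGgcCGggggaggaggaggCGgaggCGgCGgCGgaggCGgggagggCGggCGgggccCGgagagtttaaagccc
Dlk1: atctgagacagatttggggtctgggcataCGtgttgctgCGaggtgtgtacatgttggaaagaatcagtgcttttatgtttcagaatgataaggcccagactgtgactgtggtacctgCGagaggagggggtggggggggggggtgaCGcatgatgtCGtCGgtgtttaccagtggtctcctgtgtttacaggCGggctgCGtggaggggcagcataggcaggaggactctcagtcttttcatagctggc
Peg3: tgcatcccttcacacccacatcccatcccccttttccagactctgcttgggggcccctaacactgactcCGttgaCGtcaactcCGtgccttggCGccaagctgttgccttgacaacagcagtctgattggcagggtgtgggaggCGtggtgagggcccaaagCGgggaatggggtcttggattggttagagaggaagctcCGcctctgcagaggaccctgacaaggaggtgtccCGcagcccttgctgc
The Grb10 window held 40 CG sites, more than 98.7% of the 32851 RefSeq windows of this length, and 81.2% of its bases were G or C. Dlk1 and Peg3 held 8 each, near the median of 6 over all windows. Igf2 has 4 annotated starts, whose windows held 1, 10, 22 and 6 CG sites, and the single Igf2r window held 27. The arrays do not show which start was used.

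Igf2 encodes insulin-like growth factor 2, the main fetal growth factor of its family. Its single probe read 3690, 3024 and 3255 intensity units on WT 1 to WT 3 and 3259, 3455 and 3553 on KO 1 to KO 3, and no more than 0.993% of the probes on any array were brighter. The normalized levels were 11.74, 11.80 and 11.69 in WT and 11.65, 11.77 and 11.54 in KO. The genotypes overlapped, and the highest and lowest of the 6 arrays were 1.20-fold apart. The mean was 11.74 ± 0.06 (SD, n = 3) for WT arrays, and for KO arrays it was 11.65 ± 0.12 (SD, n = 3). KO minus WT was -0.09 in log2, and the 95% interval ran from -0.34 to 0.16 (limma adjusted p = 0.989). The interval keeps the Igf2 signal within a 2-fold change in either direction.

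Igf2r, the cation-independent mannose 6-phosphate receptor that takes up IGF2 and delivers it to lysosomes, was followed by 1 probe. Its level was 9.66, 10.27 and 9.77 on the WT arrays and 9.02, 9.40 and 10.05 on the KO arrays. KO 1 and KO 2 were the lowest of the 6, but KO 3 exceeded WT 1 and WT 3. The log2 difference was -0.41 with 95% bounds of -1.07 and 0.26 (limma adjusted p = 0.989), which does not bound a loss of this signal to less than 2-fold.

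Grb10, an adaptor that binds the insulin and IGF1 receptors and restrains their signal, had the probe of highest rank. ILMN_1238905 read 6673, 5329 and 6172 intensity units in WT and 7814, 6598 and 8544 in KO, and ranked between 39 and 76 among all probes of an array. Its levels were 12.66, 12.60 and 12.63 in WT and 12.95, 12.66 and 12.80 in KO, so every KO array lay above every WT array, with KO 2 barely above WT 1. The log2 difference was 0.18 with 95% bounds of -0.05 and 0.40 and did not pass (limma adjusted p = 0.989). Grb10 was the single gene among the 9 whose genotypes did not overlap, against 9.82% of all tested probes. The other tested probes of the gene, ILMN_2641843 and ILMN_1230113, overlapped between the genotypes and gave 0.37 (interval -0.45 to 1.18) and 0.21 (-0.75 to 1.17). The remaining probe, ILMN_1257352, was detected on KO 2 and KO 3 alone and was not tested. Near background, it lay between 5.33 and 5.39 in WT and between 5.57 and 5.79 in KO, also without overlap.

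Cdkn1c encodes p57, an inhibitor of cyclin-dependent kinases that takes part in cell cycle exit, also of lens fibre cells. Its probe was at 11.06, 11.07 and 10.88 (WT) and 11.08, 11.01 and 11.22 (KO). The arrays overlapped within a range of 1.27-fold, and the log2 difference was 0.10 with 95% bounds of -0.19 and 0.39 (limma adjusted p = 0.989). On every array the Cdkn1c probe was among the brightest 2.36% of all probes.

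**Figure D1:**
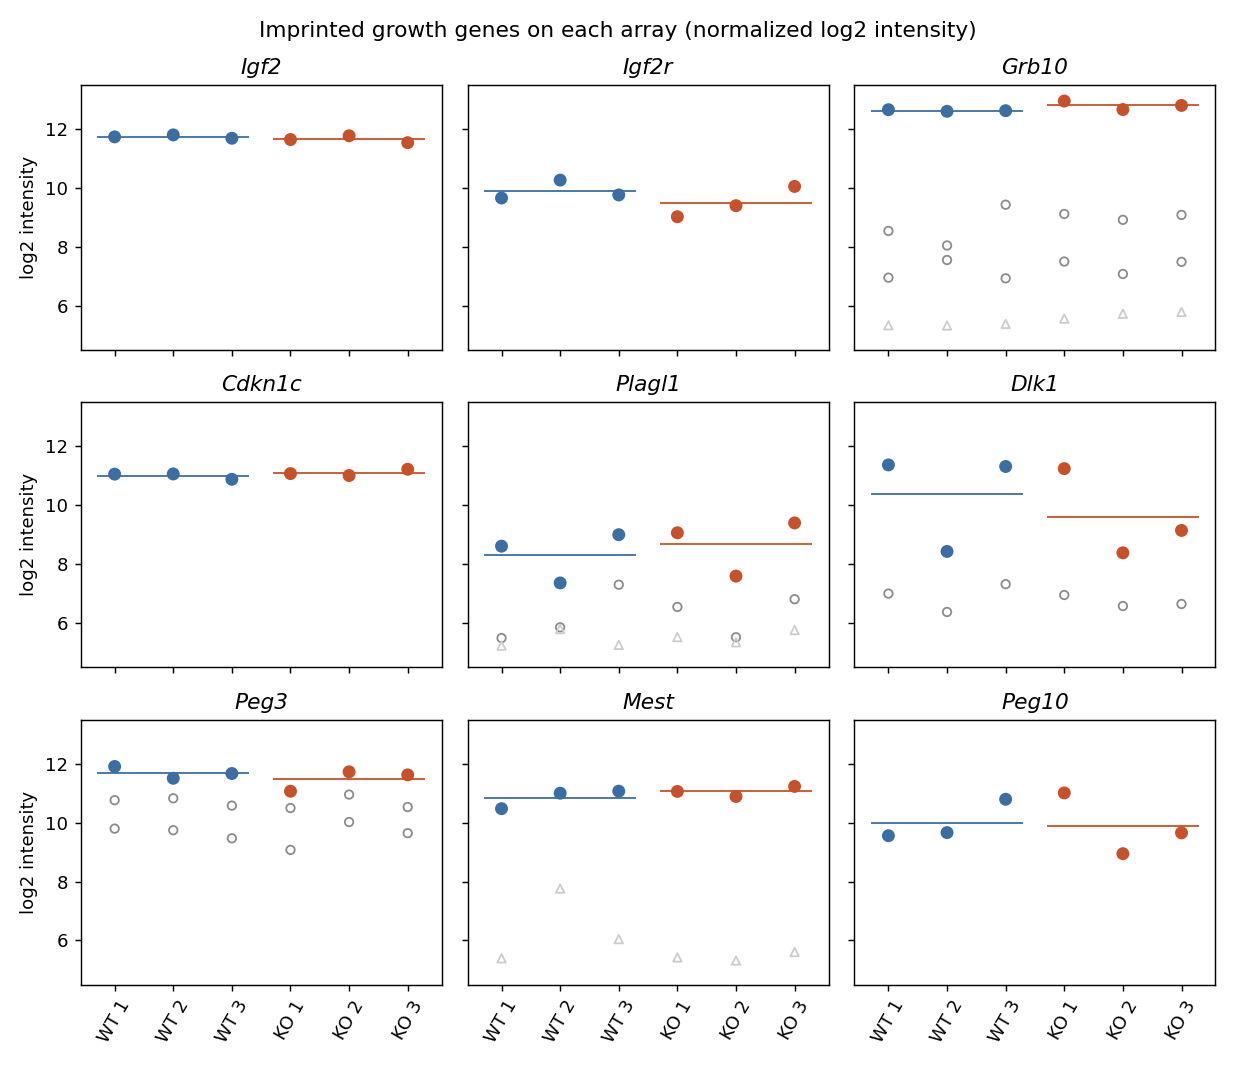
Normalized log2 intensity of every probe of the 9 genes on the 3 WT (blue) and 3 KO (red) arrays. Filled points are the brightest tested probe of a gene with the genotype mean as a line, open circles are its other tested probes and open triangles probes below the detection filter. Igf2, Cdkn1c and the brightest Grb10 probe lie almost flat, while the brighter probe of Dlk1 runs from 8.39 to 11.37.

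Peg3, a large zinc finger protein, was read by 3 probes that were all detected on every array. The brightest, ILMN_1245246, was at 11.91, 11.51 and 11.67 on the WT arrays and 11.07, 11.73 and 11.62 on the KO arrays. KO 1 was the lowest array on all 3 probes, and KO 2 was the highest on ILMN_1225513 and ILMN_2677270. The log2 differences were -0.22 (interval -0.65 to 0.21), -0.06 (-0.44 to 0.32) and -0.09 (-0.69 to 0.51), in order of brightness, none of which passed (limma adjusted p from 0.989 to 0.993). All 3 intervals lay within a 2-fold change.

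Mest, also called Peg1, encodes a predicted hydrolase of the mesoderm and fetal tissues. ILMN_1253664 gave 10.48, 11.00 and 11.07 in WT and 11.06, 10.89 and 11.23 in KO, with WT 1 the lowest array and the rest within the range of 10.89 to 11.23. Its log2 difference was 0.21 with 95% bounds of -0.21 and 0.64 (limma adjusted p = 0.989). The second Mest probe was detected on WT 2 and WT 3 alone and was not tested. It read 244 intensity units on WT 2 and between 64.1 and 116.7 elsewhere, and WT 2 did not stand out on the brighter probe.

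Plagl1, a zinc finger transcription factor that regulates other imprinted genes in mouse cells, varied more. ILMN_1240034 was at 8.61, 7.37 and 9.00 (WT) and 9.07, 7.60 and 9.40 (KO). WT 2 and KO 2 were the low arrays, and the range within a genotype was 3.11-fold in WT and 3.49-fold in KO. The log2 difference of 0.36 had a confidence range from -0.93 to 1.66 (limma adjusted p = 0.989). On the dimmer probe ILMN_1252582, detected on 4 arrays, WT 3, KO 1 and KO 3 were again high (7.30, 6.55 and 6.81), while WT 1 (5.49), WT 2 (5.86) and KO 2 (5.52) were near the floor. The third Plagl1 probe was detected on KO 3 alone.

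Peg10, a gene derived from a retrotransposon and needed for placenta formation in the mouse, was at 9.56, 9.66 and 10.80 on the WT arrays and 11.01, 8.95 and 9.65 on the KO arrays. Its high arrays were WT 3 and KO 1, 1 of each genotype, and the KO arrays spanned 4.18-fold. The log2 difference was -0.13 with 95% bounds of -1.32 and 1.05 (limma adjusted p = 0.994).

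Dlk1 encodes a membrane protein of the NOTCH ligand family, known as a marker of immature mesenchymal and endocrine cells. ILMN_2771738 read 2886, 361 and 2532 intensity units on WT 1 to WT 3 and 2442, 382 and 727 on KO 1 to KO 3. The corresponding levels were 11.37, 8.43 and 11.32 in WT and 11.25, 8.39 and 9.15 in KO. WT 1, WT 3 and KO 1 were high and WT 2, KO 2 and KO 3 low, so each genotype held high and low arrays, 7.67-fold apart at the extremes in WT and 7.26-fold in KO. The second probe, ILMN_1244618, was dimmer and had the same 3 arrays on top, at 6.96 to 7.32 against 6.38 to 6.65 on the others. The log2 difference between the genotypes was -0.78 with 95% bounds of -2.83 and 1.27 for the brighter probe (limma adjusted p = 0.989) and -0.17 (-1.17 to 0.82) for the dimmer one. The value of the brighter probe was -1.75 without WT 2, -1.61 without KO 1, -0.56 without KO 3, -0.31 without WT 3, -0.28 without WT 1 and -0.18 without KO 2.

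Across the 9 genes, each by its brightest tested probe, none differed detectably between the genotypes. At a limma adjusted p of 0.05, 0 of 9 passed, as did 0 of all 20959 tested probes (0%). At an unadjusted p below 0.05 there were also 0 of the 9, against 941 tested probes (4.49%). That count of probes was 579 without KO 3 and 1485 without WT 3. With single arrays left out, 1 of the 9 had an unadjusted limma p below 0.05 in 3 of the 6 fits, Dlk1 without WT 2, Grb10 without KO 2 and Igf2r without KO 3, none of which passed after adjustment. The mean was higher in KO for 4 genes and lower for 5, where 50.9% of tested probes had a higher KO mean. The median log2 difference of the 9 was -0.09, and that of all tested probes was 0.01. The 3 genes usually read from the mother's copy had a median of 0.10 (range -0.41 to 0.18) and the 6 usually read from the father's copy -0.11 (-0.78 to 0.36). For Igf2, Grb10, Cdkn1c, Peg3 and Mest, 5 of 9, the interval was narrower than a 2-fold change in each direction, which held for 40.7% of tested probes. For Igf2r, Plagl1, Dlk1 and Peg10 the arrays leave a change of 2-fold or more undecided.

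**Figure D2:**
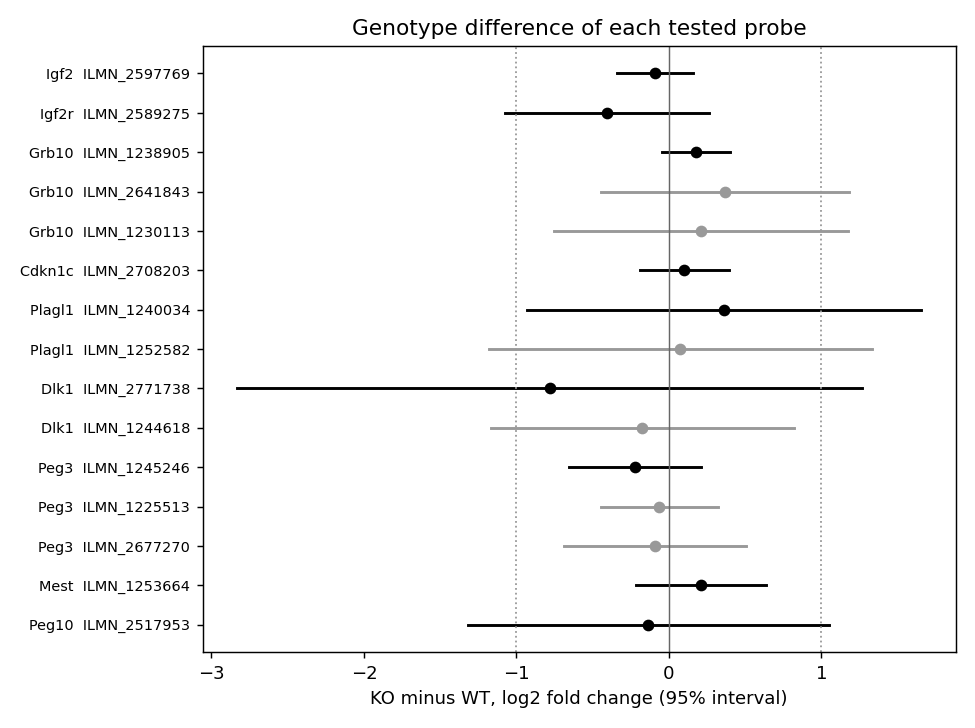
Difference between KO and WT in log2 fold change for the 15 tested probes of the 9 genes, with 95% intervals. Black marks the brightest tested probe of a gene, grey the others, and dotted lines a 2-fold change; every interval includes 0 and those of Igf2, Cdkn1c and the brightest Grb10 probe are the narrowest among the black ones.

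The genes differed far more in how much they varied between arrays of 1 genotype. The pooled SD within a genotype was 0.09 for Igf2, 0.10 for the brightest Grb10 probe and 0.11 for Cdkn1c, on the log2 scale. Only 1.92%, 2.71% and 2.89% of tested probes, in that order, had a smaller SD. Bright probes vary less in general, with a median SD of 0.19 among the 2096 probes of highest mean level against 0.43 over all tested probes. Of the 349 tested probes with a mean level at least that of the Igf2 probe, itself included, 264 had an SD at least as large, and the count was 43 of 62 for Grb10 and 644 of 855 for Cdkn1c, so their SDs were ordinary for such bright probes. The dimmer Grb10 probes varied more, with 0.50 for ILMN_2641843, whose WT arrays spanned 2.61-fold, and 0.30 for ILMN_1230113. Mest had 0.26, Peg3 0.29 and Igf2r 0.43. Peg10 had 0.89 and Plagl1 0.91, with 88.7% and 89.8% of tested probes below them. The brighter Dlk1 probe had 1.58, with 99.5% below, but the dimmer one had 0.37, with 41.9% below. Counting itself, the brighter Dlk1 probe was 1 of 2500 tested probes with a mean level at least as high as its own. Of these 1, itself, had an SD that large. For Peg10 the corresponding count was 18 of 2583, itself included.

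**Figure D3:**
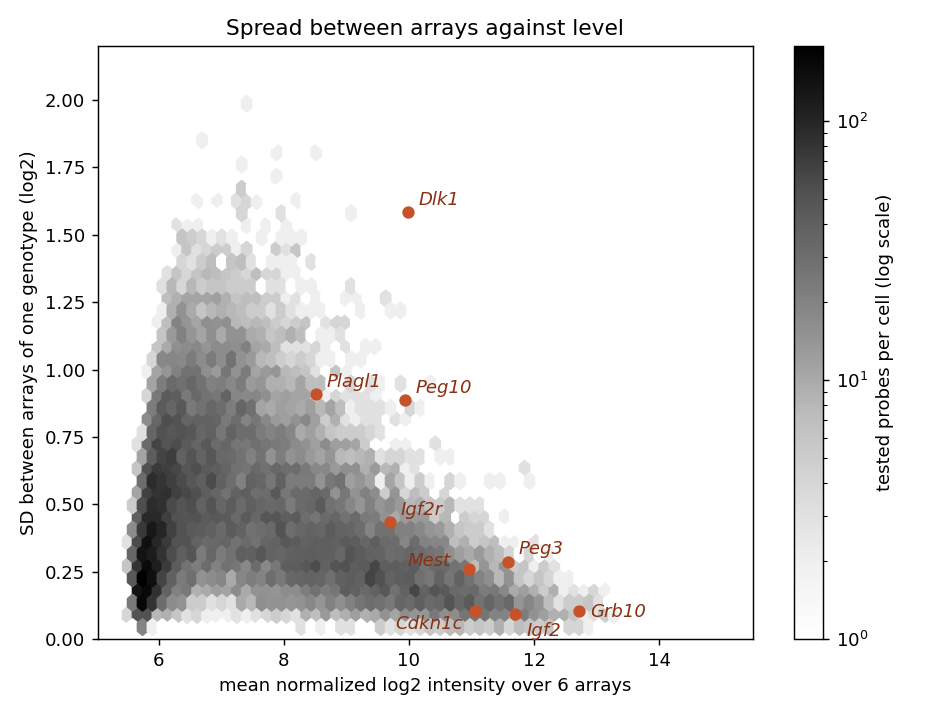
Pooled SD between arrays of the same genotype (log2) against mean level over the 6 arrays, for 20959 tested probes (grey, darker for more probes on a log scale) and the 9 genes (red). The brighter Dlk1 probe, at an SD of 1.58, stands above every tested probe at least as bright. Igf2, Grb10 and Cdkn1c lie within the range of other bright probes.

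Each probe value is a mean over beads, so the error of reading 1 array can be set beside the spread between arrays. The bead standard error of the Igf2 probe corresponded to between 0.04 and 0.07 on the log2 scale (35 to 44 beads per array), and the SD between arrays was 1.84 times the median bead error. The ratio was 2.76 for Cdkn1c and 2.91 for the brightest Grb10 probe. For the brighter Dlk1 probe it was 37.1, with 46 to 62 beads and a bead error of at most 0.05, and for the dimmer one 2.02. For Peg10 it was 15.0 and for Plagl1 13.3. Bead error covers the reading of 1 array and leaves out dissection, amplification and differences between embryos.

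The arrays also differed in markers of the tissues that border the lens ectoderm. The mean levels of the pigment, mesenchyme and endothelial lists were highest on the 3 arrays on which Dlk1 was highest. The mean level of the 2 tested pigment genes of 6, Pmel and Dct, was 9.85, 5.75 and 9.55 in WT and 9.36, 5.84 and 6.44 in KO, highest on the same 3 arrays as Dlk1. Tyr, Mlana and Slc45a2, other defining pigment genes, were detected on no array. Periocular mesenchyme and neural crest markers, 11 tested of 18, averaged 8.53, 7.23 and 8.56 in WT and 8.37, 7.39 and 7.36 in KO, again highest on WT 1, WT 3 and KO 1. Within that list Pdgfra ran opposite to the mean, at 9.00, 10.16 and 9.31 in WT and 9.29, 10.26 and 10.67 in KO. Prrx2 was highest on WT 2. The brightest Prrx1 probe stayed between 8.47 and 8.84, while the other tested probes of that gene had KO minus WT differences of -0.69, -0.72 and -0.75. Of the same list, Foxd3, Sox10 and Lum were detected on no array. The mean of the lens ectoderm markers ran the other way, with 9.09, 10.44 and 9.40 in WT and 9.00, 10.13 and 10.05 in KO. Among them Tfap2b was instead highest on WT 1 (12.00) and KO 1 (11.73), with 10.89 to 11.13 elsewhere. Cdh1 followed that mean in KO but not in WT, where it was at 9.59, 9.18 and 9.28. Igf2 and Cdkn1c differed by at most 1.20-fold and 1.27-fold over the same arrays. The part of the neighbouring tissues in the spread of Dlk1 was not tested, and in dissected tissue a change in the share of a cell type and a change in RNA per cell cannot be told apart.

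Optic vesicle markers, 8 tested of 12, averaged 6.95, 5.98 and 7.72 in WT and 6.73, 6.41 and 7.25 in KO. WT 2 and KO 2 were lowest, the arrays on which Plagl1 was also lowest, and WT 3 and KO 3 were highest. Hes5 of this list was detected on no array. Blood markers, 6 tested of 12, were at 9.97, 9.16 and 8.66 (WT) and 9.44, 8.58 and 8.28 (KO), with Gata1 detected on no array. Endothelial markers, 5 tested of 8, were at 7.82, 6.20 and 6.87 and at 8.03, 6.33 and 6.28, with Tek and Tie1 detected on no array. Their mean was highest on WT 1, WT 3 and KO 1, as Dlk1 was. Within that list Flt1 was instead highest on KO 2 (6.55), and Emcn was higher on WT 2 (7.35) than on WT 3 (6.79). Kdr stayed between 7.71 and 8.23. The part of any of these in the values of Plagl1, Peg10 and Dlk1 was not tested.

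**Figure D4:**
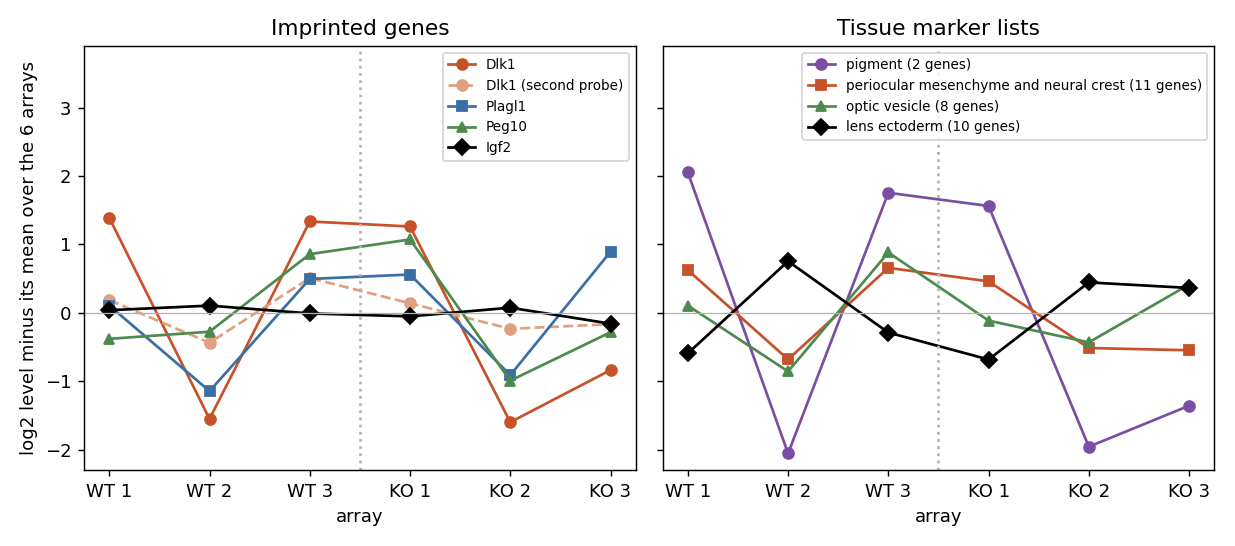
Left, log2 level of Dlk1 (both probes), Plagl1, Peg10 and Igf2 on each array minus its mean over the 6 arrays; right, the same for the mean of 4 tissue marker lists, with the number of genes tested. Dlk1 and the pigment and mesenchyme lists are high on WT 1, WT 3 and KO 1, where the lens ectoderm list is low, and Igf2 stays near 0.

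The genes whose profile over the 6 arrays was most like that of a member were taken by the root mean square (RMS) difference of log2 levels centred on their means, over 7477 genes detected on all 6 arrays. For Dlk1 these were Car2, a carbonic anhydrase (RMS 0.20), Col3a1, a fibrillar collagen (0.28), Adamts15, a matrix protease (0.28), and Vcam1, a cell adhesion molecule (0.31). The median over all these genes was 1.35. Car2 was at 9.16, 6.14 and 8.54 on the WT arrays and 8.76, 6.21 and 6.76 on the KO arrays. Col3a1 also belongs to the mesenchyme list above. For Igf2 the closest were Wtip (0.02), Retreg2 (0.04), Sgo1 (0.04) and Rfxap (0.05), with a median over all genes of 0.33, and since the SD of Igf2 over the 6 arrays was 0.10, closeness to it means little more than a steady level.

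Other imprinted genes, among them neighbours of the 9, were read in the same fit. Of 56 listed, 46 had a probe and 33 were tested, the KO mean being higher for 18 and lower for 15. None passed at an adjusted p of 0.05 (lowest limma adjusted p = 0.989). At an unadjusted p below 0.05 there were 2 (6.06%, against 4.49% of all tested probes), and the median log2 difference of the 33 was 0.02. The 2 genes at an unadjusted p below 0.05 also had the largest differences by brightest tested probe. They were Copg2, a coat protein subunit whose gene overlaps Mest, at 1.16 (interval 0.04 to 2.29), and Blcap, at 0.95 (0.06 to 1.85). Both had an adjusted p of 0.989 in limma. Gnas, of the same list, had 0.35 (-0.51 to 1.20) on its brightest probe. Some dimmer Gnas probes exceeded the Copg2 difference, while other dimmer Gnas probes had a lower KO mean. Copg2 was at 6.79, 6.04 and 7.09 (WT) and 7.18, 8.01 and 8.21 (KO), so the genotypes did not overlap. Blcap did not overlap either, making 2 of 33 (6.06%) against 9.82% of all tested probes. The position of the Copg2 probe relative to the stretch shared with Mest was not examined. Ppp1r9a, a protein phosphatase 1 regulator near Peg10, had -0.80 (-2.32 to 0.73) and Ddc, the aromatic amino acid decarboxylase beside Grb10, had -0.76 (-1.76 to 0.25).

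The most variable of these genes were Asb4, Cobl, Rian and Ppp1r9a. Asb4, which encodes an ankyrin repeat protein, was at 9.58, 5.68 and 9.44 on the WT arrays and 10.17, 7.63 and 8.72 on the KO arrays. Cobl, an actin nucleator beside Grb10, was at 8.14, 5.10 and 7.80 and at 7.56, 6.51 and 7.55. For both, WT 2 was the lowest array and KO 2 the next. Rian, a noncoding RNA of the Dlk1 cluster read from the mother's copy, was at 8.41, 5.52 and 6.46 (WT) and 7.36, 6.16 and 6.96 (KO). WT 3 was high for Dlk1 but not for Rian. Ppp1r9a was at 7.01, 6.88 and 8.76 and at 7.69, 5.94 and 6.63, highest on WT 3 and KO 1 as Peg10 was.

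Further neighbours of the 9 genes, chosen here after their values were seen, included both steady and variable ones. Nap1l4, in the Cdkn1c cluster, was between 11.90 and 12.08 on all 6 arrays. Phlda2, which restrains placental growth in the mouse and lies in the same cluster, was at 7.32 on KO 1 and between 5.63 and 6.45 elsewhere. Usp29, a neighbour of Peg3, was at 6.93 on WT 1 and between 8.07 and 9.00 elsewhere, with a log2 difference of 0.02 (interval -1.17 to 1.20). Sgce, which shares a promoter region with Peg10, was between 5.53 and 6.45 and had -0.40 (-1.03 to 0.22).

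The IGF axis around Igf2 and Igf2r was likewise without a gene that passed. Of 36 receptors, binding proteins and signal transducers, 23 were tested, KO being the higher for 11 and the lower for 12 (median -0.07, lowest limma adjusted p = 0.989). There were 2 (8.70%) at an unadjusted p below 0.05, against 4.49% of all tested probes. They were Tsc2 and Igfbp5, the latter an IGF binding protein named here after its values were seen, at -0.33 (interval -0.62 to -0.04) and -0.15 from its other probe. The largest differences in the list, by brightest tested probe, belonged to Igfbp2 and Tsc2. A dimmer probe went further than both for Mtor (-1.19), Shc1 (0.94) and Tsc1 (-0.85). The brightest probes of these genes gave -0.16, 0.39 and 0.02, in that order. Igf1r also had a dimmer probe that went further, with a higher KO mean, against 0.16 on its brightest. Igfbp2, another IGF binding protein, had a log2 difference of -0.78 (interval -1.64 to 0.09), with an unadjusted p above the threshold. Tsc2, a brake on mTOR signalling, was at 9.30, 9.18 and 9.19 on the WT arrays and 8.64, 8.56 and 8.58 on the KO arrays, a difference of -0.63 (-1.13 to -0.13, limma adjusted p = 0.989), with -0.23 from its second probe. The most variable were Igfbp3, also a binding protein, at 10.18, 6.52 and 9.23 (WT) and 10.62, 7.59 and 7.14 (KO), and Igf1, at 8.32, 5.40 and 6.56 and at 8.79, 5.43 and 6.55. Igfbp3 was highest on the 3 arrays on which Dlk1 was highest, and Igf1 on WT 1 and KO 1 of those.

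Relatives of Cdkn1c and the proteins that keep imprints were also examined. Of 14 cyclins, their kinases and other kinase inhibitors, 11 were tested, with 5 higher and 6 lower in KO and a median of -0.05. By brightest tested probe, the extremes were Cdk6 at 0.74 (interval -0.68 to 2.17) and Cdkn2d at 0.70 (-0.10 to 1.50). A dimmer probe went further for Cdkn1b (0.88), Ccnd1 (-0.86) and Cdk2 (-0.85). Cdkn1a, Cdkn2a and Cdkn2b were below the filter. Of 12 genes for imprint maintenance, 8 were tested, with 2 higher and 6 lower and a median of -0.09. The largest differences by brightest tested probe belonged to Zfp57, which protects methylated imprints, at -0.30 (-1.47 to 0.88), and the DNA methyltransferase gene Dnmt3a at -0.19 (-0.95 to 0.57). Dnmt3b had 0.16 on its brightest probe and went further on a dimmer one (0.74). For Zfp445, 1 dimmer probe also went further and was higher in KO, while its other probes were lower in KO. On the brightest probes, none of the genes of either list had an unadjusted p below 0.05 in limma. On the same probes, 7 of the 8 maintenance genes had an interval within a 2-fold change.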

How the data were processed

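Lens ectoderm of 3 wild-type and 3 knockout samples was profiled after amplification of 15 ng of RNA. The deposited non-normalized table gave, per the file headers, a mean bead intensity, a bead count, a bead standard error (a linear signal) and a detection p-value for each probe and array. GenomeStudio is named, per the submitters' processing notes, with no version. The second deposited table held processed intensity values whose order on each array matched that of the raw intensity (rank correlation 1), with minima below 0, made by a method the sources used here do not give. Here, intensities were corrected and quantile normalized (neqc, offset 16, limma 3.58.1, R 4.3.3), and probes detected on at least 3 of 6 arrays were tested with lmFit and eBayes with a variance trend, KO minus WT, with Benjamini-Hochberg adjustment over 20959 probes and a threshold of 0.05. The arrays served as replicates, and their number limits the precision. The fit was also run on simulated data with independent noise for each probe. Such data check the code and do not show how large a change these arrays could detect.

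Symbols came from the platform's annotation (29976 probes with 1 symbol, 10 with several, 16646 unnamed). A gene was represented by its brightest tested probe. All probes of the members were named, with the 2 genes of each further list with the largest difference and the 2 with the largest SD (4 of each for other imprinted genes), and the 4 genes nearest in profile to Igf2 and to Dlk1. Dimmer probes of list genes, and markers that differed from the mean of their list, were named after their values were seen. Members, lists and rules were chosen with earlier results of these data known. Bead errors were carried to log2 to first order. The series text describes statistics over beads, which were not used as a test. The main fit did not pair samples by replicate number. Deviations of same-numbered samples correlated at 0.11, 0.14 and -0.01, and so few arrays cannot decide whether the numbers mark pairs.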

Additional observations from a re-analysis of the deposited data

How the results depend on the processing

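Under all 14 alternatives (quantile normalization without background correction, the deposited processed values, an offset of 50, no filter, detection on all 6 arrays, a replicate block, array weights, the mean of a gene's tested probes, and each of the 6 arrays left out) 0 of the 9 genes passed, and 0 of all tested probes passed in each of the 13 that apply to the probe count. The replicate block gave 0 calls in both, with 986 probes at an unadjusted p below 0.05 against 941 without it. With no filter there were 1961 of 46632 probes, Grb10 among them, and with detection on all 6 arrays 617 of 13819. By number, 3 of the 6 samples matched their own number best in the other genotype, a count from too few samples to decide whether the numbers mark pairs. Direction was kept in 123 of 126 fits of single genes. It turned for Plagl1 without WT 2 (-0.12) and for Peg10 without WT 3 (0.26) and without KO 2 (0.33). The causes were not tested. With 1 array left out, the median of the 9 genes ran from -0.12 to 0.15, that of the other imprinted genes from -0.19 to 0.13 and that of the IGF axis from -0.16 to 0.06. Over the same fits Igf2r ran from -0.69 to -0.17, Cdkn1c from 0.04 to 0.15, Grb10 from 0.10 to 0.25, Igf2 from -0.15 to -0.03, Dlk1 from -1.75 to -0.18, Peg3 from -0.35 to -0.02, Mest from 0.02 to 0.32, Plagl1 from -0.12 to 0.91 and Peg10 from -0.70 to 0.33. The Dlk1 difference was -1.41 with array weights and -0.48 as the mean of its 2 probes. Levels near 5 to 6 on the log2 scale are at background, where the offset compresses differences.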
